A study of Bos taurus with 2 samples.

Results

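The members described here are 9 genes of neutrophil granulocytes: the receptor genes CXCR1, CXCR2, CSF3R and FPR1, the integrin gene ITGAM, and the granule enzyme genes ELANE, MPO, CTSG and MMP8. They were chosen by gene symbol among 16959 genes with a probe on the array, and a probe was taken as theirs when its gene name in the files, or the current RefSeq symbol of its accession, was one of these symbols or an older form of it. Of the 9 genes, 7 had at least 1 probe, with 12 probes in all and 1 spot per probe. No probe carried the name of FPR1, a receptor of bacterial formyl peptides, or of MMP8, the neutrophil collagenase, in any annotation column, so these genes have no value here.

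Mammary tissue was taken after slaughter from female adult Chinese Holstein cows in late lactation, and none of the cows had been injected with recombinant bovine somatotropin. The mastitis group had clinical mastitis and had been given antibiotics, while the normal group was healthy and untreated, and the effects of disease and treatment cannot be told apart. The design gives 3 cows per group, but the files hold 1 mastitis array and 1 normal array, without naming the cows behind them, and the ages of the cows are not given in the sources used here. With 1 array per group no difference has a replicate check, no test was possible, and the number of arrays limits the precision. Whole tissue was measured, so fewer neutrophils and less RNA per neutrophil cannot be told apart.

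Neutrophils are the phagocytes that move from blood into the gland and the milk in bacterial mastitis. CXCR1 and CXCR2 on their surface bind CXCL8 and related chemokines, CSF3R binds the growth factor that drives the formation of neutrophils in the bone marrow, and ITGAM pairs with ITGB2 to form the adhesion and complement receptor CD11b/CD18. Elastase (ELANE), myeloperoxidase (MPO) and cathepsin G (CTSG) are stored in azurophil granules. Their transcripts belong mainly to precursors in the bone marrow and decline as the cell matures, whereas the receptors continue to be transcribed in blood neutrophils.

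The signal of a spot was its brightness in the Cy3 channel after the scanner software had subtracted a background based on the negative controls, and is called the net signal. The negative controls then had a mean net signal of 0.01 on the mastitis array but 1.95 on the normal array. This offset was left in the signals, and it weighs most on dim probes. The limit for a probe above background was set 2.6 SD over the mean of 153 negative control spots, and the software also had to have found the spot. That limit was a net signal of 7.10 on the mastitis array and of 8.74 on the normal one. It was passed by 70.2% and 67.0% of the 43653 gene probes. For ratios the net signals were scaled to the 75th percentile of their array, 210 (mastitis) and 128 (normal), and a gene was measured when the same probe was above background on both arrays, which held for 12245 genes. Log2 ratios had a pooled SD of 0.17 between replicate spots and of 0.45 between probes of the same gene, a technical error that leaves out the spread between cows.

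Most probes for the members lay at the level of the negative controls on both arrays. Of the 12 member probes, 4 were above background for mastitis and 4 for normal, 33.3% in each case. Only 3 probes were above background on both, those of CXCR1, CSF3R and ELANE, and 7 were above background on neither. These 3 genes were lower by more than 2-fold on the mastitis array, as were 9.14% of all measured genes (2-fold or more), and no member was measured at a higher level there. CXCR2, MPO and CTSG were above background on neither array, and ITGAM was above background on the mastitis array alone.

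**Figure D1:**
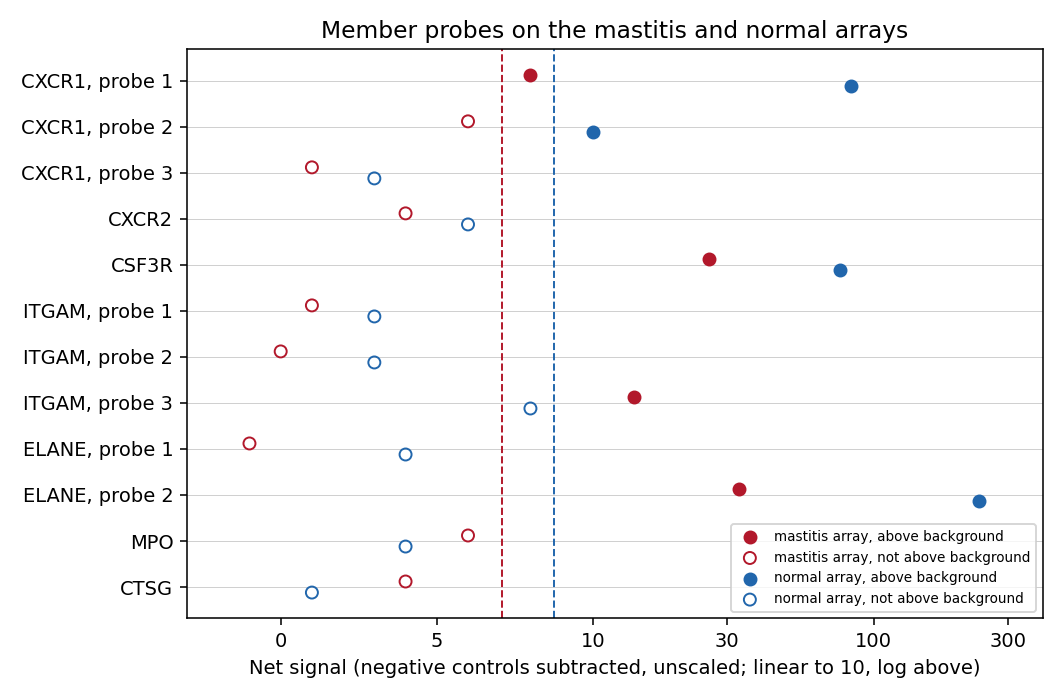
Net signal (horizontal axis, linear to 10 and logarithmic above, unscaled) of the 12 probes of 7 genes on the mastitis array (red) and the normal array (blue). Filled points are above background, open points are not, and dashed lines mark the limits of 7.10 (mastitis) and 8.74 (normal). The blue points at 83, 76 and 237 lie far to the right of the red points of the same probes at 8, 26 and 33, while 7 probes have open points on both arrays.

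CXCR1, a receptor of CXCL8, had 3 probes that differed widely. The first had a net signal of 8 in mastitis against 83 in normal tissue. The second had 6 in mastitis against 10 in normal tissue, and the third had 1 and 3. The first probe was thus clearly above background on the normal array, the second was just above the limit there, and the third was at background on both arrays. The signal of 8 on the mastitis array passed the limit by less than 1 unit and lay within the range of the negative controls, which reached 9, and 3 of 153 negative control spots were at or above it. After scaling, the measured signals of the first probe gave a 17.0-fold lower value on the mastitis array (log2 ratio -4.09), whose size is uncertain because the mastitis signal cannot be told from the highest negative controls. Moving each signal by 1 SD of its array's negative controls (2.73 on the mastitis array, 2.61 on the normal array) gave folds between 12.3 and 26.6, and taking the highest negative control as the mastitis signal gave 15.1.

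The names of the CXCL8 receptors on this array need care. The first 2 of these probes were named CXCR2 in the files, and their RefSeq accession now belongs to CXCR1, so they are counted as CXCR1 here. The third was named CXCR1 in the files, with an accession that the RefSeq table used here does not hold. Under the names in the files the 17.0-fold lower signal would be that of CXCR2. In the RefSeq table of the ARS-UCD2.0 assembly the genes lie close together, with RUFY4 and ARPC2 on their outer sides and 1 long non-coding RNA gene between them. The files hold no probe sequences, so the share of each receptor in these signals was not tested. The probe whose accession belongs to CXCR2 under both namings had a net signal of 4 in mastitis against 6 in normal tissue. It was above background on neither array, and CXCR2 has no ratio here.

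CSF3R, the receptor of granulocyte colony-stimulating factor, was measured by a single probe. Its net signal was 26 in mastitis against 76 in normal tissue. Neither signal was near the negative controls, none of which was as high. The scaled signal was 4.80-fold lower on the mastitis array (log2 ratio -2.26), the 172nd lowest of 12245 genes, with folds between 4.19 and 5.54 when each signal was moved by 1 SD of the negative controls. Before scaling the signals differed 2.92-fold.

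ITGAM, the alpha chain of CD11b/CD18, could not be compared. The first of its 3 probes had a net signal of 1 in mastitis against 3 in normal tissue, and the second had 0 and 3. The third had 14 on the mastitis array, above background, and 8 on the normal array, where the scanner software did not find the spot. In scaled terms the mastitis signal of that probe was below the lowest normal signal called above background, so no fold can be given in either direction. Its partner ITGB2, which also pairs with the alpha chains of other leucocytes, was measured by 5 probes and had a log2 ratio of 0.18 (SD over probes 0.41), with median net signals of 1151 in mastitis against 493 in normal tissue. ITGAD, the alpha chain of another integrin of the same family, had a log2 ratio of -0.88 after scaling (SD 0.10, 2 of its 4 probes). It was dim, with median net signals of 12.5 in mastitis against 14 in normal tissue.

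ELANE, which encodes neutrophil elastase, had 2 probes for the same RefSeq transcript, and they did not behave alike. The first had a net signal of -1 in mastitis against 4 in normal tissue, not above background on either. The second had 33 in mastitis against 237 in normal tissue. That probe was 11.8-fold lower on the mastitis array (log2 ratio -3.56), the 52nd lowest of 12245 genes, and the fold was 10.8 at its lowest when each signal was moved by 1 SD of the negative controls. The value for ELANE therefore rests on 1 of its 2 probes. A probe above background on neither array, beside a measured one, was also found in 30.1% of the 8634 measured genes with several probes, and in 42.6% of the 690 of these that were at least 2-fold lower.

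The other granule enzymes gave no measurable signal. MPO, the enzyme that makes hypochlorous acid, had 6 in mastitis against 4 in normal tissue. CTSG, a serine protease of the same granules as elastase, had 4 in mastitis against 1 in normal tissue. On the mastitis array 6 of the 153 negative controls were at or above the MPO signal, and 11 were at or above that of CTSG. A further 2 probes that carried no member symbol were described as predicted cathepsin G or cathepsin G-like, and their net signals were -1 and 3 on the mastitis array and 4 and 3 on the normal array, also not above background. For these genes a difference between the tissues was not detectable on these arrays, which does not show that the transcripts were absent.

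Of the 3 measured members, 3 were lower by 2-fold or more on the mastitis array and 0 were higher by 2-fold or more. Over all measured genes the shares were 9.14% lower (1119 genes) and 2.26% higher (277 genes). The median log2 ratio was -3.56 for the 3 members and -0.15 for all measured genes. The 3 genes are few, each rests on 1 probe and 1 spot, and they were dim: the geometric means of their net signals on both arrays were 25.8 (CXCR1), 44.5 (CSF3R) and 88.4 (ELANE). Among the 3541 measured genes with a geometric mean up to 50, the share at least 2-fold lower was 14.4%, and it was 6.65% among the 6405 genes between 50 and 500. Of all 1119 genes at least 2-fold lower, 65.8% rested on a single measured probe.

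**Figure D2:**
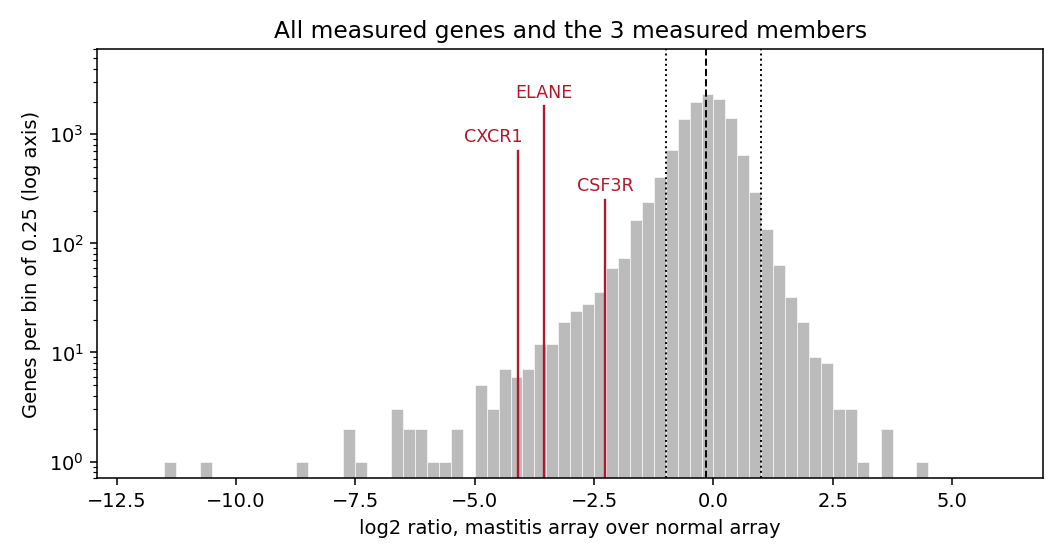
Number of genes (vertical axis, logarithmic) by log2 ratio of the mastitis array over the normal array (horizontal axis, bins of 0.25) for 12245 measured genes. The dashed line is the median of -0.15, dotted lines mark 2-fold, and red lines mark the measured members CXCR1 (-4.09), ELANE (-3.56) and CSF3R (-2.26), which stand in the lower tail.

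The size of these differences depended on the background correction. With the normexp correction, used with an offset of 50, the fold was 3.13 for CXCR1, 2.32 for CSF3R and 4.78 for ELANE, all lower on the mastitis array. ELANE then had the largest fold of the 3 in place of CXCR1. With a background limit of 3 SD, or at the highest negative control, CXCR1 was no longer measured, whereas CSF3R and ELANE were. Without scaling between the arrays the folds were 10.4, 2.92 and 7.18 in the same order of genes. With no filter on dim probes, CXCR1 was 6.12-fold and ELANE 8.79-fold lower over all their probes. That setting gave ratios also for CXCR2 (2.46-fold lower), ITGAM (2.83-fold lower), MPO (1.09-fold lower) and CTSG (2.44-fold higher), all formed from net signals within or close to the range of the negative controls.

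**Figure D3:**
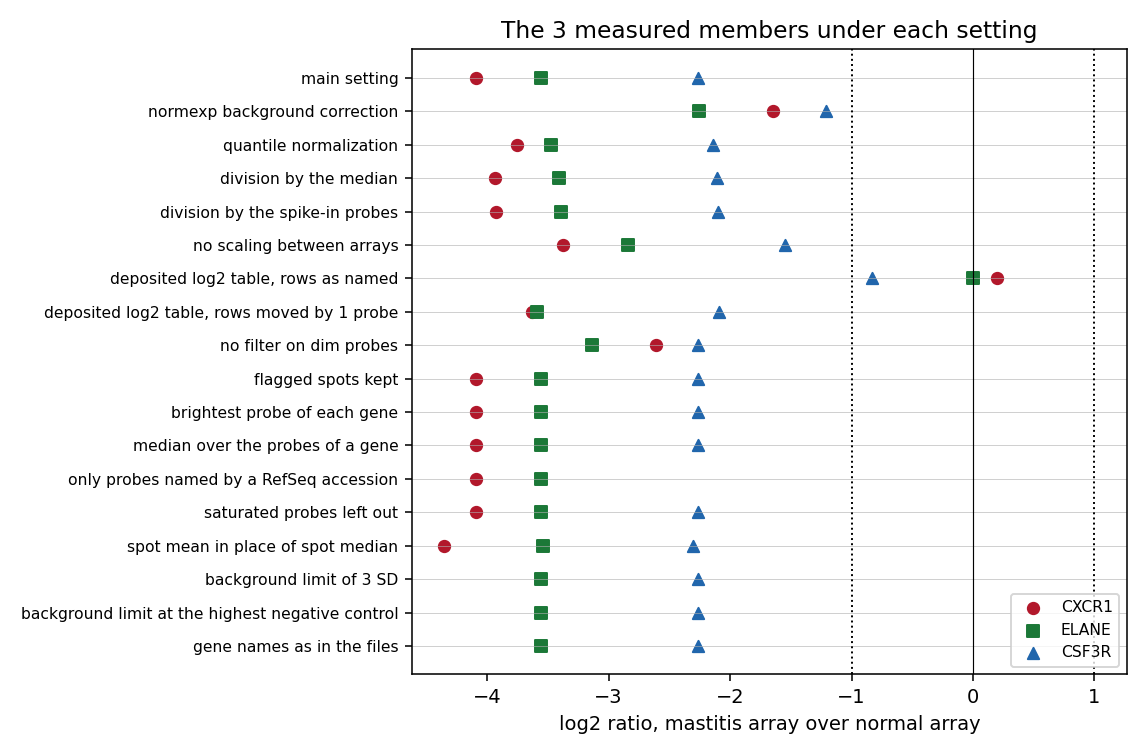
Log2 ratio of the mastitis array over the normal array (horizontal axis) of CXCR1 (red circles), ELANE (green squares) and CSF3R (blue triangles) under each setting (vertical axis). Dotted lines mark 2-fold, and a missing symbol means that the gene was not measured under that setting. All symbols lie left of -1 except in the deposited log2 table with its rows as named, where they lie between -0.83 and 0.20.

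The ligands of the member receptors were low on the mastitis array as well. The list had 12 genes with a probe. They included CSF2, IL17A and IL17F, whose receptors are not members, and which were above background on neither array. Of the 12 genes, 6 were measured and 5 of these were lower by 2-fold or more, with none that far higher and a median log2 ratio of -2.45. With the normexp correction, quantile normalization, or division by the median or the spike-in probes, 5 were lower and 1 was higher. With no scaling 4 were lower and 1 was higher. With net signals of at least 50 on both arrays, 3 of these genes were measured and 2 were lower. CXCL8, the main ligand of CXCR1 and CXCR2, had a log2 ratio of -2.96 (SD 0.90, 3 probes, median net signals of 29 and 99). CXCL5, which binds CXCR2, had -2.56 (1 probe), with net signals of 22 and 79, and CXCL2, another CXCR2 ligand, had -2.51 (2 probes, median net signals of 14 and 51). CSF3, the ligand of CSF3R, gave dim net signals of 2 on the mastitis array against 10 on the normal array, the latter just above the limit. It was at least 2.05-fold lower after scaling. ANXA1, whose protein can act through formyl peptide receptors, was the exception, with a log2 ratio of 0.97 (SD 0.09, 3 probes).

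The calgranulins, calcium-binding proteins that are abundant in the neutrophil cytosol and also made by epithelial cells, were lower on the mastitis array. S100A8 was 3.05-fold lower on the mastitis array (1 probe), with net signals of 419 and 780, and S100A12 was 3.26-fold lower (3 probes, SD 0.10 on the log2 scale). S100A9 was 2.23-fold lower, with 367 and 498 at its measured probe. Thus 3 of 3 calgranulins were at least 2-fold lower, beside 9.14% of all measured genes, with a median log2 ratio of -1.61. With the normexp correction, division by the spike-in probes or no filter on dim probes, 2 of the 3 were. Division by the median or by the spike-in probes raised every log2 ratio by 0.15 or 0.16, and no scaling raised them by 0.71. With no scaling the calgranulin median was -0.90 and 0 of 3 were lower by 2-fold or more, while 4 of the 6 measured ligands still were.

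Other genes of neutrophil granules differed in both directions. Of 6 further azurophil granule genes, 1 was lower and 1 higher by 2-fold or more. CTSC, the protease that activates elastase and cathepsin G, was 2.92-fold lower (SD 0.14, 2 probes), whereas BPI, a protein that binds lipopolysaccharide, was 3.02-fold higher with probes that disagreed (SD 1.15, 2 probes). LYZ, which encodes lysozyme, had a log2 ratio of -0.43 (SD 0.08, 2 probes). Of 21 genes of specific and gelatinase granules, 5 were lower and 1 was higher by 2-fold or more, with a median of -0.30. With division by the median or by the spike-in probes 3 were lower and 2 higher, and with no scaling 1 was lower and 7 were higher (median 0.42). CRISP3, a cysteine-rich secretory protein also made in exocrine glands, was 38.5-fold lower (SD 0.17, 2 probes). LTF, the iron-binding lactoferrin of granules and of milk, was 3.10-fold lower (SD 0.69, 5 probes), and the alkaline phosphatase gene ALPL was 2.65-fold lower (SD 0.13, 2 probes). SLC11A1 was the gene past 2-fold in the other direction, at 2.61-fold higher (SD 0.88, 2 probes). The cathelicidin genes were within 2-fold, with log2 ratios from -0.01 (CATHL5) to 0.89 (CATHL3).

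Genes of the phagocyte oxidase, of adhesion and of other surface receptors were mostly within 2-fold. Of 6 oxidase genes 5 were within 2-fold and 1 was lower, NCF4 with a log2 ratio of -2.49 (SD 1.10, 2 probes). CYBB, the catalytic subunit, had 0.71 (SD 0.20, 2 probes) and the cytosolic subunit gene NCF1 -0.49 (1 probe). Of 12 integrin and adhesion genes 11 were within 2-fold, and JAM3, an adhesion molecule of cell junctions, was 2.01-fold higher (SD 0.06, 2 probes), with PECAM1 of endothelial cells and leucocytes at a log2 ratio of 0.76 (SD 0.47, 3 probes). Of 18 measured surface receptors, 2 were lower and 1 was higher by 2-fold or more, with a median of 0.27. With no scaling between arrays 9 of the 18 were higher by 2-fold or more, as were 5 of the 12 adhesion genes. The receptors past 2-fold after scaling were the inhibitory Fc receptor gene FCGR2B (log2 ratio -1.90, SD 0.04, 3 probes), the IgA receptor gene FCAR (-1.45, 1 dim probe) and the chemokine receptor gene CXCR4, which many leucocytes carry (1.04, SD 0.07, 2 probes). CSF2RB, a receptor subunit for growth factors of myeloid cells, was at least 2.46-fold lower after scaling, from dim net signals of 5 and 12. IL17RA was above background on the mastitis array alone with a signal of 8 and no fold. The neutrophil marker CD177 was above background on neither array.

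Of 11 measured genes of myeloid signalling and transcription, 1 was lower by 2-fold or more and none that far higher. PADI4, which citrullinates histones in neutrophils, was 2.08-fold lower from 1 dim probe (net signals of 15 and 19), and the kinase gene FGR and the transcription factor gene CEBPD had log2 ratios of -0.97 and -0.89. ALOX5, the lipoxygenase of leukotriene synthesis, was above background on the mastitis array alone, with 9 and 5 and no fold. Over the 7 lists of other neutrophil genes together, 77 of 93 genes were measured, 16.9% were lower and 5.19% higher by 2-fold or more, and the median was -0.15. Over all measured genes 9.14% were lower and 2.26% higher, with the same median. With no scaling the balance turned, to 3.90% lower and 31.2% higher for these lists and 2.64% and 20.0% for all genes.

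**Figure D4:**
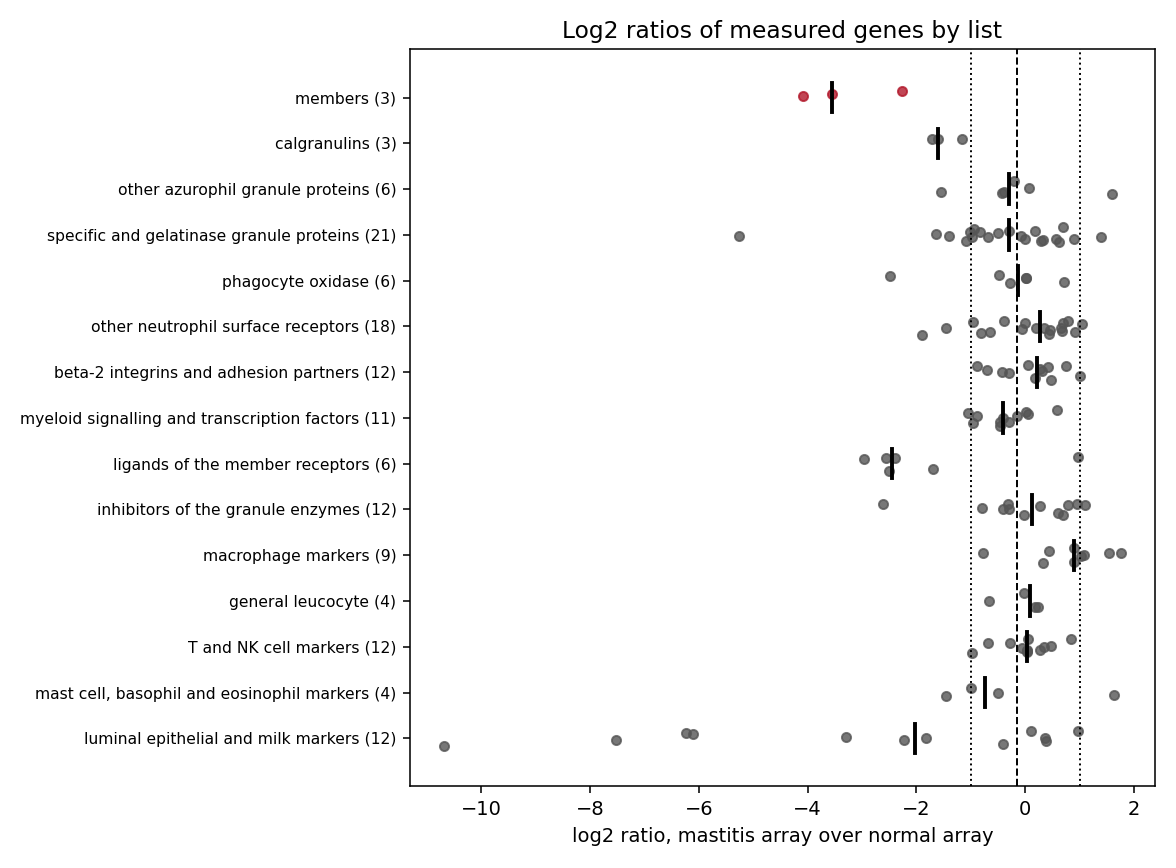
Log2 ratio of the mastitis array over the normal array (horizontal axis) of each measured gene by list (vertical axis, number of measured genes in brackets). Each point is a gene (vertical scatter has no meaning), solid bars give the list medians, the dashed line gives the median over all genes (-0.15) and dotted lines stand at 2-fold. The medians of the members (-3.56, red), the ligands (-2.45), the luminal and milk genes (-2.02) and the calgranulins (-1.61) lie below the lower 2-fold line, and those of the other lists lie between -0.74 and 0.90. In the luminal and milk list, the keratin genes, EPCAM and CDH1 lie between the 2-fold lines.

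Inhibitors of the granule enzymes were mostly within 2-fold, at 10 of 12 measured genes, with 1 lower and 1 higher. With no scaling 1 was lower and 5 were higher, and with quantile normalization 3 were higher. TIMP4 and TIMP2, inhibitors of metalloproteinases such as MMP8, had log2 ratios of 1.10 (SD 0.32, 2 probes) and 0.96 (SD 0.14, 3 probes), and SERPINA3-1, a serpin, had -2.62 (1 probe, net signals of 20 and 75). SERPINA3 and SERPINB9 were above background on the mastitis array alone, with 13 and 10 there and no fold.

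Markers of other cells differed in direction, with milk genes lower on the mastitis array, macrophage genes mostly higher and general leucocyte and T cell genes within 2-fold. With no scaling 3 of the 12 T and NK cell genes and 8 of the 9 macrophage genes were higher by 2-fold or more. General leucocyte genes had a median of 0.09 with 4 of 4 within 2-fold, among them LCP1 at -0.66 (SD 0.07, 2 probes), LAPTM5 at 0.24 and PTPRC, the leucocyte antigen CD45, at 0.19 (SD 0.30, 4 probes), and the summed scaled signal of the list was 45.6 in mastitis against 44.8 in normal tissue. Of 9 measured macrophage markers, 4 were higher by 2-fold or more and none that far lower, with a median of 0.90 and summed scaled signals of 200 (mastitis) and 109 (normal). CD163, VSIG4 and C1QA had log2 ratios of 1.76, 1.53 and 1.08, and MARCO was above background on neither array. CD14 went the other way, with -0.77 (SD 0.51, 3 probes). The T and NK cell markers lay within 2-fold at 12 of 12 measured genes, with a median of 0.03. Their summed signals were 57.3 and 78.8, or 20.5 and 19.8 without CD4. CD2 had a log2 ratio of -0.99, CD5 0.84 and CD4 -0.68. NCR1, with dim net signals of 2 and 13, was at least 2.67-fold lower after scaling. Of 13 luminal and milk genes 12 were measured and 7 were lower by 2-fold or more, with a median of -2.02. Summed signals were 408 (mastitis) and 8279 (normal). The lowest were PAEP (-10.69, SD 3.50, 2 probes), CSN2 (-7.53, SD 2.21, 5 probes) and CSN1S1 (-6.23, SD 1.05, 6 probes), whose probes differed widely. LALBA was not above background on the mastitis array. The epithelial genes KRT8, KRT18, KRT19, EPCAM and CDH1 were within 2-fold, with log2 ratios of 0.36, 0.97, -0.40, 0.12 and 0.38. The part of the milk genes and of the macrophage genes in the members' lower values was not tested.

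Mast cells and eosinophils, which share granule proteases or related peroxidases with neutrophils, were marked by 9 genes with a probe, and 4 of them were measured. KIT, which mammary epithelial cells also carry, had a log2 ratio of 1.64 (1 probe), and the IgE receptor gene FCER1A had -1.46 (1 probe). The histidine decarboxylase gene HDC had -0.998, just short of 2-fold lower, with net signals of 46 and 56 at its probe. TPSB2, RNASE2 and EPX were above background on the normal array alone and at least 2.78-fold, 11.1-fold and 3.28-fold lower on the mastitis array. CPA3 and CCR3 were above background on neither array. The summed scaled signals of this list were 2.34 in mastitis against 2.29 in normal tissue, of which KIT gave 1.75 and 0.555, and without KIT they were 0.595 and 1.73.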

How the data were processed

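Scanner files of 1 mastitis array and 1 normal array were analysed. What the authors deposited per spot are Cy3 intensity values read with GenePix Pro 6.1 per the file headers. From these the software took off a background based on the negative controls, without scaling the arrays. Beside them the authors deposited for each spot a percent of saturation, a signal-to-noise score (not used further) and a flag. The labels name Agilent Feature Extraction, the methods an Affymetrix chip, and the headers an Agilent bovine array. The slide barcode and scan time are the same for both arrays. How the authors made the deposited log2 table is not given in the sources used here. Column medians there are 4.34 (mastitis) and 4.29 (normal), and its rows tracked the signals of the probe that follows in sorted order (Spearman correlation with the probe named, 0.10), so it served as an alternative only.

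Controls were dropped, repeated spots of 1 probe were averaged, and saturated probes (2 and 4) stayed in. Of 43653 probes, 26743 were named by RefSeq accession (table of the ARS-UCD2.0 assembly, names only), 5971 by symbol, 141 by synonym and 1662 by the file, and 9136 had no gene. A gene's log2 ratio is the mean over its probes above background on both arrays. For a gene above background on 1 array alone, a bound was formed against the higher of the dim signal and the lowest signal above background on that array. Such bounds apply to the scaled signals and allow for neither noise nor another scaling. The members and lists were chosen with earlier results of these data known. Genes named are all members and, per list, up to 3 with the largest ratios and those above background on 1 array alone. ITGB2, ANXA1, SLC11A1, the cathelicidins, CD14, CD177, MARCO, CPA3 and CCR3 were named after their values were seen. The script was tested on simulated data. Alternatives covered the normexp correction (offset 50, R 4.3.3 with limma 3.58.1), scaling, filters, naming and probe summaries. Python 3.11.15, numpy 2.4.6, pandas 2.3.3 and matplotlib 3.10.9 were used.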

Additional observations from a re-analysis of the deposited data

How the results depend on the processing

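No paired analysis was possible because each group has 1 array. CXCR1, CSF3R and ELANE stayed at least 2-fold lower under every setting that measured them except the deposited table with its rows as named. That table gave log2 ratios of 0.20 for CXCR1, which reversed its direction, -0.83 for CSF3R and 0.00 for ELANE, with 0 members lower and a member median of 0.00. Of all measured genes, 11.5% were at least 2-fold lower in it. The rows of that table follow the next probe. With its rows moved by 1 probe the count was 3, and 6.40% of all measured genes were lower. With no filter on dim probes, 7 members had ratios, 5 were at least 2-fold lower, 1 was at least 2-fold higher, and the median was -1.50. Under that setting 23.8% of 16959 genes were at least 2-fold lower and 2.68% higher. The member median was -1.65 with the normexp correction and -2.84 with no scaling. It was -2.91 over 2 members with a background limit of 3 SD or at the highest negative control, both added after the data were seen, as were the names in the files and the spot mean. Over all genes, the counts at least 2-fold lower and higher were 400 and 93 with normexp, 323 and 2449 with no scaling, 798 and 436 with spike-in scaling, and 4035 and 454 with no filter. Requiring net signals of 50 or more on each array left no member measured and so gave no value. Signals below about 9 cannot be told from negative controls.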
